A study of Mus musculus with 7 samples.

Results

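The genes of the mitochondrial protein import machinery were examined in mouse embryos from nuclear transfer of a somatic cell (SCNT). The set is every row of the deposited expression table whose symbol begins with Tomm or Timm, 26 of 24319 rows. Its rows were taken by name, but the set was chosen with earlier results of these data known. The embryos carry the label of the 2-cell stage and were built by placing the nucleus of a cumulus cell, one of the somatic cells around an egg, in an oocyte freed of its own chromosomes. The labels give the strain as B6D2F1 and the genotype as wild type. All embryos, those serving as controls included, had received Kdm4a mRNA, which codes for an enzyme that removes histone methylation. Recipient oocytes were fresh in the group FOC+K (2 libraries). Those of CROC+K (3 libraries) and CROC+K+M (2 libraries) were warmed after vitrification. CROC+K+M embryos were also treated with 10 µM melatonin, an indole hormone and antioxidant, where the protocol names vehicle as its control. Each library was made from a pool of 50 to 100 embryos, so the unit of replication is the pool and not the embryo. The treatment protocol common to all libraries names blastocysts beside the 2-cell stage without assigning them to a library. Expression is given as FPKM, fragments scaled by transcript length and by the fragments mapped in the library.

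Most mitochondrial proteins are made in the cytosol and cross the outer membrane through the translocase of the outer membrane (TOM). Its receptors recognise precursors, the Tomm40 barrel is the pore, and small subunits stabilise the complex. Behind it, the TIM23 translocase of the inner membrane takes precursors with a presequence, which the Hsp70 motor pulls into the matrix. Carrier proteins of the inner membrane are instead escorted across the intermembrane space by small TIM chaperones and inserted by TIM22. Early embryos rely on mitochondria inherited from the oocyte.

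The 26 rows hold 24 genes named for the translocases and their paralogs, counting the noncoding antisense transcript Tomm6os, and 2 genes that share only the name. The latter are Tomm34, a cytosolic cochaperone, and Timmdc1, an assembly factor of respiratory complex I. Between 22 and 25 of the 26 rows had an FPKM of at least 1 in a library. Testing required an FPKM of at least 1 in 2 or more libraries, which left 25 of the 26 rows and 12271 genes in all. The row left out was Tomm40l, the paralog of the pore gene, which was listed between 0 and 0.619.

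1 library stood apart before any comparison. Across all tested genes, Pearson's r of log2(FPKM + 1) between CROC+K+M replicate 1 and each other library was 0.851 to 0.875, and between the others 0.908 to 0.974, as a description over genes. Its 12 markers of trophectoderm, the outer cell layer of the blastocyst, summed to 27109 FPKM, against 36.9 to 66.9 in the other 6 libraries. The gene Fabp3 made up most of that sum, at 24404 against 0.322 to 4.36 in the others. In CROC+K+M replicate 1, 12 of 12 were at 1 or more, against 6 to 8 elsewhere. Cdx2, a defining factor of that layer, was at 6.97 in it and listed at 0 in all others. The 10 oocyte markers were present in every library and summed to 6328 and 5826 for FOC+K, 4862 to 6388 for CROC+K, and 3798 and 3943 for CROC+K+M. Of 12 markers of the 2-cell stage, 8 to 10 were at 1 or more in each library, and Tcstv1 and Tcstv3 were listed at 0 in all 7. The sum of the 12 markers of the 2-cell stage was 823 and 1162 in CROC+K replicates 2 and 3, and 159.9 to 480.2 in the other 5 libraries. The 6 inner cell mass markers summed to 3.54 to 7.70 in the other 6 libraries and to 17.8 in CROC+K+M replicate 1, and the 10 cumulus cell markers to 10.2 to 22.9 in all 7. In such pools, fewer cells of a type and less RNA per cell cannot be told apart. Kdm4a, the injected message, was at 4051 and 4949 in CROC+K replicates 2 and 3, 497 in CROC+K replicate 1 and 689 to 2797 in the others. Rn45s, the ribosomal RNA precursor, lay between 1047 and 2114 in both FOC+K libraries and CROC+K replicate 1, and between 175 and 266 in the remaining 4. FPKM summed to between 552356 and 1017995 per library. Results that include CROC+K+M replicate 1 are therefore given with and without it.

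Message levels of the import genes differed widely, and Timm8b was highest in every library. Timm8b encodes a small TIM chaperone of the intermembrane space, and its FPKM in replicate order was 1634 and 1622 for FOC+K, 1852, 2994 and 2732 for CROC+K, and 2235 and 3398 for CROC+K+M. It alone made up 34.5% to 57.6% of the summed FPKM of the 26 rows. Next by median over the 7 libraries came the small TOM subunit gene Tomm5 (429), Timm17a (393) and Timm23 (322), the latter both of the TIM23 translocase. The pore gene Tomm40 had a median of 16.3, and Tomm70a, the receptor for carrier precursors, one of 6.55. The paralog Tomm20l (median 1.60), Tomm6os (1.07), Timmdc1 (0.777) and Tomm40l (0.152) closed the order.

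**Figure D1:**
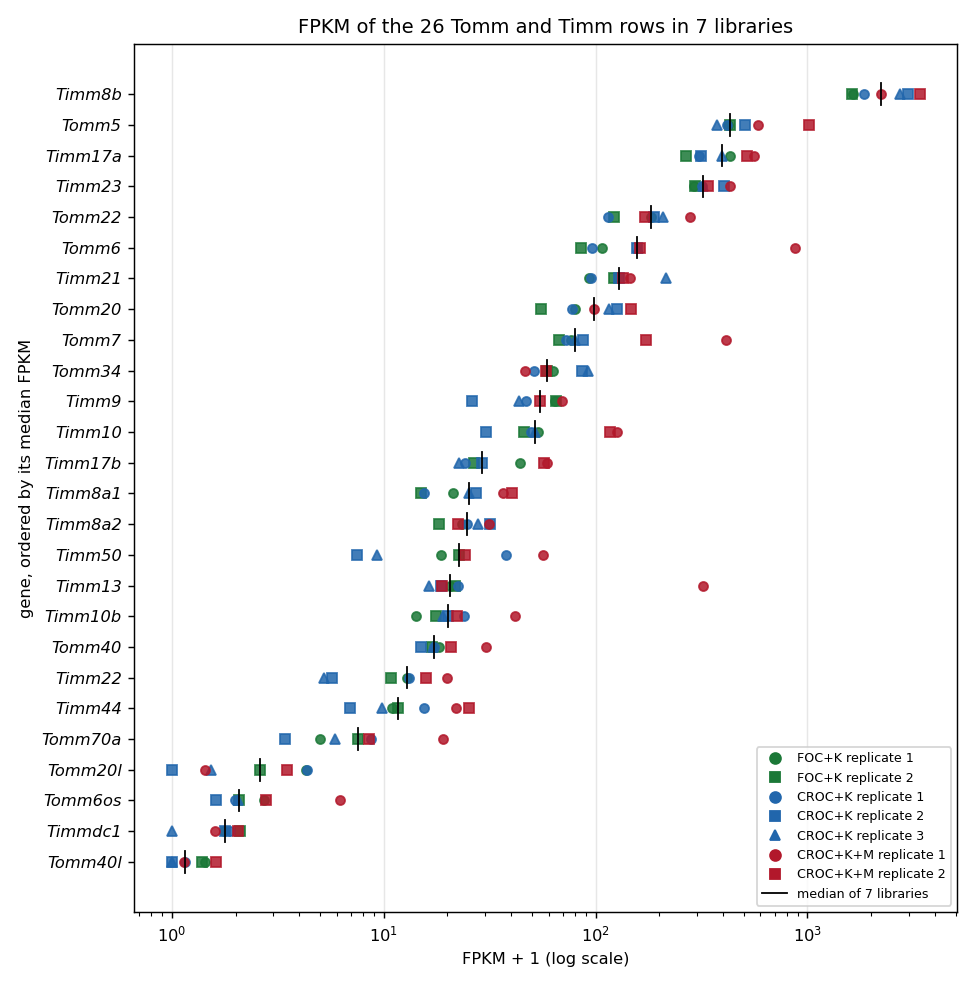
FPKM plus 1 on a log scale (x axis) of the 26 Tomm and Timm rows (y axis, ordered by median), with 1 point per library, colour for the group, shape for the replicate number, and a black bar for the median of 7 libraries. Timm8b lies above all others, and CROC+K+M replicate 1 stands off to the right for Timm13, Tomm6 and Tomm7.

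Message ratios of partner subunits varied from pair to pair. Tim8 and Tim13 proteins form one of the small TIM complexes, yet the FPKM ratio of Timm8b to Timm13 was 78.3 to 189.7 in 6 libraries and 6.96 in CROC+K+M replicate 1. Timm8a1, another Tim8 gene beside Timm8a2, was close to Timm13, at 0.677 to 2.18 times its FPKM in the same 6 libraries and 0.110 times in CROC+K+M replicate 1. Of the paralogs that serve the TIM23 channel, Timm17a exceeded Timm17b by 9.16 to 18.2 times in all 7 libraries. Tomm22, the central receptor of the TOM complex, stood 6.96 to 13.3 times above the pore gene Tomm40. The receptor gene Tomm20 stood 5.42 to 51.8 times above Tomm70a. Short transcripts make FPKM values less certain, and the coding lengths here run from 165 to 1833 bases. Across the 24 tested protein-coding members the median level had a Spearman correlation of -0.44 with coding length, a description over genes that share the same libraries. In 7 members another annotated gene matches at least 95% of the bases over at least 80% of the coding sequence, and those values are uncertain: Timm23 (5 such genes), Tomm20 and Tomm7 (2 each), and Timm17a, Timm8a1, Timm10b and Tomm6 (1 each). For Timm10b and Tomm6 the matching gene overlaps the member on the same strand and is not a copy elsewhere.

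Timm9 and Timm10, whose proteins form the other small TIM complex, were close to each other in message and differed in ratio between the groups. The ratio of Timm10 to Timm9 was 0.828 and 0.707 for FOC+K, 1.05, 1.18 and 1.2 for CROC+K, and 1.82 and 2.16 for CROC+K+M. The 3 groups did not overlap in this ratio, which equal scaling of a library leaves as it is. This was not particular to Timm10 and Timm9. The ratio of Tomm7 to Tomm40 was 4.37 and 4.13 for FOC+K, 4.39 to 6.14 for CROC+K, and 8.76 or more for CROC+K+M. Both ratios were picked out after their values were seen and have no test. The share of all gene pairs that keep the groups apart is not given.

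**Figure D2:**
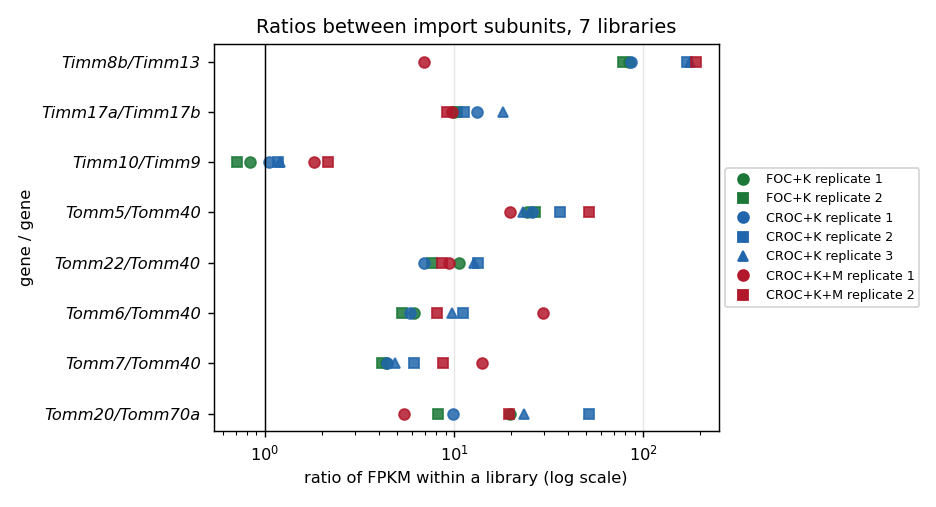
Ratio of the FPKM of 2 genes within a library (x axis, log scale) for 8 gene pairs (y axis), with 1 point per library, colour for the group and shape for the replicate number; the vertical line marks a ratio of 1. The ratio of Timm8b to Timm13 is 78.3 or more except in CROC+K+M replicate 1, at 6.96, and that of Timm10 to Timm9 is highest in the 2 CROC+K+M libraries.

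Setting CROC+K+M against CROC+K asks what accompanies melatonin in embryos from cryopreserved oocytes. Most import genes had higher mean levels with melatonin, 23 of 25 tested, beside 54.1% of all tested genes. The median log2 change of the 25 genes was 0.71, and that of all genes 0.06. None passed an adjusted p of 0.05 in limma (0% of all tested genes did), and the smallest adjusted p among them was 0.408. An unadjusted p under 0.05 was reached by 7, all higher, beside 6.69% of all tested genes in that direction and 3.75% in the other. Leaving out CROC+K+M replicate 2, so that replicate 1 stands alone, limma called 3 of 25 (Timm13, Tomm6 and Tomm7), beside 5.36% of all tested genes. In 12 of the 25 both CROC+K+M libraries lay above all 3 CROC+K libraries, beside 12.3% of all tested genes, and in 0 did both lie below, beside 11.2%. Here and below, such positions are those of FPKM as deposited. Whether the groups stay apart after scaling to equal FPKM sums is not given.

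The small TOM subunit genes Tomm7, Tomm5 and Tomm6 were above CROC+K in both melatonin libraries, Tomm6 only narrowly in replicate 2. Tomm7 was at 71.4, 86.4 and 78.7 FPKM in CROC+K and at 413 and 173 in CROC+K+M replicates 1 and 2. Its log2 change was 1.75 ± 0.38 (SE; adjusted p = 0.408 in limma), and leaving out replicate 1 of CROC+K+M gave 1.13 ± 0.29 (adjusted p = 0.549). Tomm7 is known for holding the kinase PINK1 at the outer membrane as well as for its place in the TOM complex. Tomm5 was at 417, 508 and 372 in CROC+K and at 583 and 1017 in CROC+K+M, and here replicate 2 was the higher one. Its log2 change was 0.84 ± 0.31 over all libraries and 1.25 ± 0.31 without CROC+K+M replicate 1, with adjusted p = 0.430 and 0.549 in limma. With equal FPKM sums the change of Tomm5 over all libraries was 0.59, and after quantile normalization 0.48. Tomm6 rested mainly on 1 library, with 94.8, 156 and 157 in CROC+K against 869 and 161 in CROC+K+M. Its log2 change of 1.49 ± 0.65 became 0.28 ± 0.39 without CROC+K+M replicate 1. The antisense row Tomm6os, at 0.609 to 1.06 in CROC+K and 5.23 and 1.78 in CROC+K+M, overlaps Tomm6 on the other strand. With strand use in counting not given in the sources used here, their reads cannot be told apart where they overlap. The same limit holds for all 11 members that overlap a gene on the opposite strand, Tomm6 and Tomm6os included. Among the others are Timm8b, Timm9, Timm13, Timm17b, Tomm40 and Tomm70a.

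No receptor gene lay above CROC+K in both melatonin libraries, and the pore gene did. Tomm20, which binds presequences, was at 76.0, 125 and 115 in CROC+K and 97.8 and 147 in CROC+K+M, with a log2 change of 0.22 ± 0.34. Tomm22 was at 113, 187 and 206 against 277 and 169, a change of 0.40 ± 0.38. In both genes the groups overlapped. Tomm70a was at 7.67, 2.41 and 4.90 against 18 and 7.52, so that CROC+K+M replicate 2 fell inside the range of CROC+K. Its log2 change was 1.19 ± 0.52, and 0.61 ± 0.58 without CROC+K+M replicate 1. The pore gene Tomm40 was tightly held in CROC+K, at 16.3, 14.1 and 16.2, and was at 29.5 and 19.7 in CROC+K+M, a change of 0.61 ± 0.29 that became 0.33 ± 0.32 without replicate 1. Adjusted p in limma was 0.483 for Tomm70a, 0.507 for Tomm40, 0.720 for Tomm22 and 0.847 for Tomm20.

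Of the small TIM chaperones, Timm10 had the smallest p of all members and was alike in both melatonin libraries. Its FPKM was 48.4, 29.5 and 50.9 in CROC+K and 125 and 115 in CROC+K+M, a mean of 42.9 ± 11.7 (SD, n = 3) against 120.3 ± 6.79 (SD, n = 2). The log2 change was 1.50 ± 0.31 (SE; adjusted p = 0.408 in limma), and leaving out replicate 1 of CROC+K+M gave 1.45 ± 0.39 (adjusted p = 0.549). Timm9, its partner, was at 45.9, 25.1 and 42.4 against 68.7 and 53.6, without overlap, a change of 0.71 ± 0.33. Timm8a1, the mouse counterpart of the gene altered in human deafness-dystonia syndrome, was at 14.6, 26.2 and 24.3 against 35.5 and 39.1, also without overlap, a change of 0.80 ± 0.34. Timm13 behaved differently, at 21.5, 17.6 and 15.4 in CROC+K and 321 and 17.9 in CROC+K+M. Its log2 change of 2.04 ± 0.99 was the largest of the 25 and became -0.01 ± 0.34 without CROC+K+M replicate 1. Timm10b, the small TIM bound to TIM22, was likewise higher in that library alone, at 23.1, 19.1 and 18 against 40.6 and 21.1 (change of 0.54 ± 0.35, and 0.08 ± 0.34 without it). Timm8b (0.16 ± 0.33) and Timm8a2 (-0.07 ± 0.30) had changes smaller than their standard errors.

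Within the inner membrane translocases, Timm17b, Timm44 and Timm22 were above CROC+K in both melatonin libraries, and Timm23 and Timm21 were not. Timm17b was at 23.1, 28.0 and 21.7 in CROC+K and at 57.7 and 56.3 in CROC+K+M, a log2 change of 1.21 ± 0.31 (adjusted p = 0.408 in limma) and of 1.19 ± 0.38 without replicate 1. The more abundant paralog Timm17a was at 307, 315 and 393 against 560.2 and 516, a change of 0.68 ± 0.29. Timm44, which ties the Hsp70 motor to the channel, was at 14.5, 5.90 and 8.83 against 20.8 and 24.4, a change of 1.21 ± 0.38. Without CROC+K+M replicate 1 the change of Timm44 was 1.32 ± 0.49. Timm22, the channel for carrier proteins, was at 12.2, 4.72 and 4.24 against 19.0 and 14.8, a change of 1.28 ± 0.45 and of 1.11 ± 0.57 without that library. Both genes were lower in CROC+K replicates 2 and 3 than in replicate 1, the split that Rn45s also shows. With equal FPKM sums the changes of Timm17b, Timm44 and Timm22 were 0.96, 0.96 and 1.02. Unadjusted p in limma was then 0.028, 0.094 and 0.098. The channel gene Timm23 was at 317, 401 and 322 against 431 and 338, a change of 0.15 ± 0.26. Timm50, the receptor of that translocase, ranged from 6.48 to 36.9 within CROC+K and was at 55.2 and 23.1 in CROC+K+M, with overlap and a change of 1.42 ± 0.71. Timm21 was at 94.0, 129 and 215 against 145 and 133, with a change of 0.02 ± 0.37.

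Of the 2 genes that share only the name, Tomm34 had a lower mean with melatonin and Timmdc1 a higher one. Tomm34 was at 49.97, 85 and 90.7 in CROC+K and 45.2 and 57.1 in CROC+K+M, the lowest log2 change of the 25 at -0.51 ± 0.33 (adjusted p = 0.605 in limma). Timmdc1 stayed at or below 1.10 in all 7 libraries (change of 0.28 ± 0.41), as did the paralog Tomm20l at or below 3.36 (0.25 ± 0.69), so both sit near the floor of the table.

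**Figure D3:**
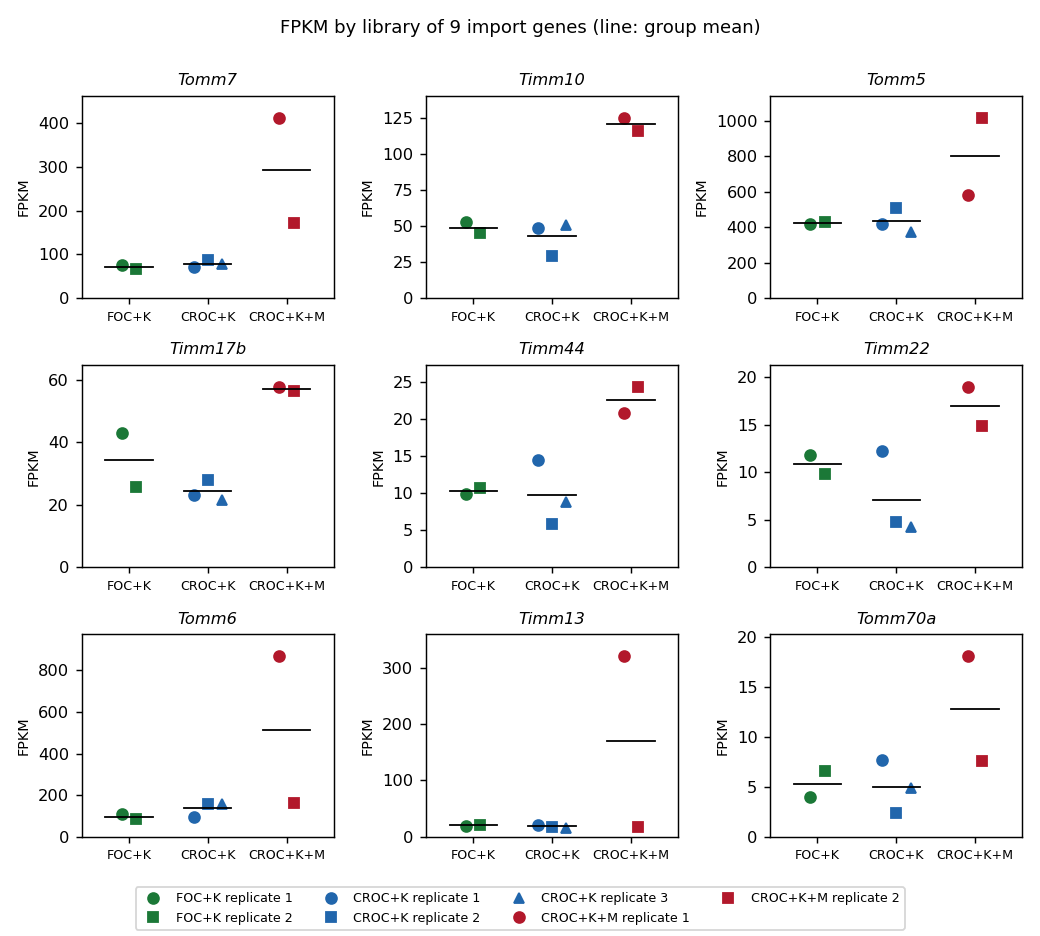
FPKM (y axes, from 0) of 9 import genes in the 3 groups (x axes), with 1 point per library, shape for the replicate number and a line for the group mean. Tomm7, Timm10, Tomm5, Timm17b, Timm44 and Timm22 are above CROC+K in both CROC+K+M libraries. Tomm6 is too, but only narrowly in replicate 2. Timm13 is high in replicate 1 alone (321 against 17.9).

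Without CROC+K+M replicate 1, 20 of the 25 genes were higher in the remaining melatonin library than in the mean of CROC+K, beside 52.3% of all tested genes. The median log2 change was then 0.54, and that of all genes 0.03. CROC+K+M replicate 2 lay above all 3 CROC+K libraries in 15 of 25 genes, beside 25.9% of all tested genes, and below all 3 in 1 (Timm8a2), beside 23.2%. Replicate 1 lay above all 3 in 18 of 25, beside 32.1% of all genes, and neither library did in 4 (Timm21, Timm8a2, Tomm20l and Tomm34), beside 54.3%. At an unadjusted p under 0.05 there remained Tomm5, Tomm7, Timm10, Timm17b and Timm44, beside 4.01% of all genes in that direction and 4.38% in the other, where there was no member, and the smallest adjusted p in limma was 0.549. Among genes not yet given in this way, the changes without replicate 1 were 0.62 for Timm17a, 0.86 for Timm8a1, 0.54 for Timm9, 0.81 for Timm50, 0.57 for Tomm6os, 0.51 for Tomm20, 0.46 for Timm8b, 0.46 for Timmdc1, 0.89 for Tomm20l and 0.05 for Tomm22. Those of Timm23, Timm21, Timm8a2 and Tomm34 were -0.03, -0.05, -0.31 and -0.34. Here the lone library of CROC+K+M is assumed to vary like those of the other groups. Within the 4 libraries with low Rn45s, which leave out CROC+K replicate 1, the median over the import genes was 0.82 with 21 of 25 higher. For all genes there the median was 0.07 with 53.6% higher. Trophectoderm markers were at 36.9 FPKM in CROC+K+M replicate 2, the lowest sum of the 7 libraries. The sum of the oocyte markers was lower in both CROC+K+M libraries than in all of CROC+K, and its part in the comparison was not tested. Single markers differed. Gdf9 was at 55.2 and 60.9 in CROC+K+M, below all of CROC+K. Zp3 was at 42.6 and 71.7 in CROC+K+M, the latter the highest of the 7 libraries.

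**Figure D4:**
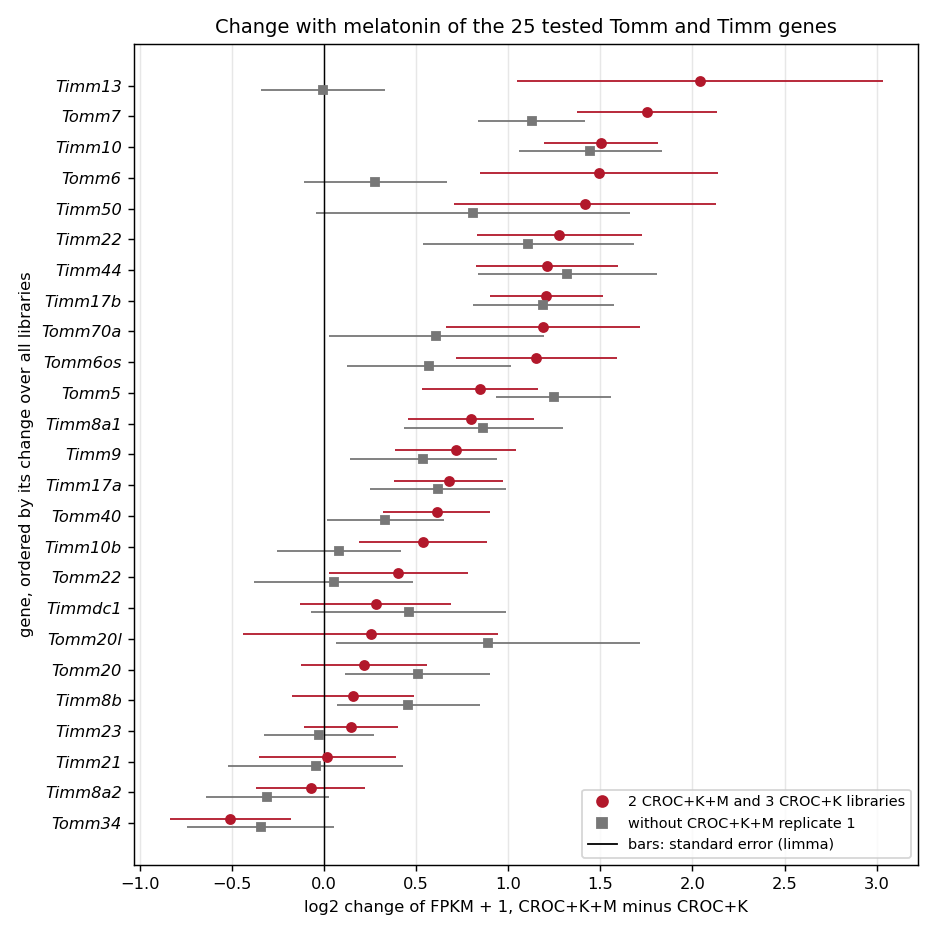
Log2 change of FPKM + 1 between CROC+K+M and CROC+K (x axis) for the 25 tested genes (y axis), over all libraries (circles) and without CROC+K+M replicate 1 (squares), with limma's standard error as bars. Timm13 and Tomm6 lie at 2.04 and 1.49 with that library and at -0.01 and 0.28 without it, while Timm10 and Timm17b change little.

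Scaling the libraries to equal FPKM sums lowered the whole comparison, moving the median of all genes from 0.06 to -0.14. The import genes then had a median of 0.46 with 19 of 25 higher, and after quantile normalization one of 0.48 with 20 of 25 higher, where that of all genes was -0.09. The share of the summed FPKM taken by the 26 rows was 0.604% to 0.651% in FOC+K, CROC+K and CROC+K+M replicate 1, and 0.899% in CROC+K+M replicate 2. Without the most abundant row, Timm8b, the share was 0.417% and 0.431% in CROC+K+M replicates 1 and 2, above the 0.269% to 0.349% of the other 5 libraries. CROC+K+M replicate 1 had the highest level of 15 of the 25 genes, beside 26.7% of all tested genes.

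Upstream sequences of the members were read from RefSeq on the build GRCm38.p6, a later build than the mm9 named for the expression data, and 23 of the 26 symbols matched. Those of the 4 genes with an entry that kept an unadjusted p under 0.05 with and without CROC+K+M replicate 1, and of Timm8b, the most abundant member, are shown. Each is the 150 bases before the annotated start, on the strand of the gene, with motif matches in capitals. They are Timm10 (chr2:84826871-84827020, plus strand), Tomm5 (chr4:45108114-45108263, minus strand), Timm17b (chrX:7899186-7899335, plus strand), Timm44 (chr8:4275906-4276055, minus strand) and Timm8b (chr9:50603751-50603900, plus strand).
Timm10: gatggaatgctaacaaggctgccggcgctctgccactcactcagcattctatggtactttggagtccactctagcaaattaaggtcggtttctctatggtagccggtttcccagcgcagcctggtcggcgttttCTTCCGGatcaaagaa
Tomm5: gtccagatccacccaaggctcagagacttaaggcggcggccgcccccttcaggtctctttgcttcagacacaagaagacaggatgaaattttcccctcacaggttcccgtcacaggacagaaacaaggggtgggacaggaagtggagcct
Timm17b: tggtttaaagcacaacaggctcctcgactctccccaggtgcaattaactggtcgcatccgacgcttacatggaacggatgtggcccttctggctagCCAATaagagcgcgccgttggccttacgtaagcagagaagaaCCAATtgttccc
Timm44: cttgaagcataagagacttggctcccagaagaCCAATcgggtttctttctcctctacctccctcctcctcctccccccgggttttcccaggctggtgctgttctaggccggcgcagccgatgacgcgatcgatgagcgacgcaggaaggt
Timm8b: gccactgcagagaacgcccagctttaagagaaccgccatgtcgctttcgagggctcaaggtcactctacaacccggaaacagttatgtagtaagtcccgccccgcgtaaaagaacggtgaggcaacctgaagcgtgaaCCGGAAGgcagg

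4 motifs were searched on both strands in the 250 bases before each start, namely CCGGAAG, the core bound by ETS factors such as GABP, CCAAT, the NRF1 motif (GCGCA followed directly by its reverse complement) and the YY1 motif AAGATGGCG. GABP and NRF1 are known regulators of nuclear genes for mitochondrial proteins. The ETS core was found in 8 of the 23 members (34.8%), namely Timm10, Timm23, Timm8a2, Timm8b, Timmdc1, Tomm22, Tomm34 and Tomm70a, against 7.83% of all 27025 genes with an entry and 15.3% of the 9344 that were also tested. In Timm10 and Timm8b it starts 16 and 12 bases before the annotated start. Among these 8 members only Timm10 lay above CROC+K in both melatonin libraries, beside 12 of the 25 tested members. A link between motif and change was not tested. No entry was matched for Tomm7, Tomm40l and Timm21.

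Setting CROC+K against FOC+K asks what differs with vitrification of the recipient oocyte. The import genes were split evenly, with 12 of 25 higher and 13 lower in CROC+K, beside 47.3% of all genes higher, and a median log2 change of -0.01 beside -0.03 for all genes. None passed in limma (0% of all genes did, and every adjusted p of a member was 0.9996), and 1 had an unadjusted p under 0.05, beside 1.06% of all genes on the lower side. That gene was Timm9, with 63.5 and 63.9 FPKM for FOC+K against 45.9, 25.1 and 42.4 for CROC+K, a log2 change of -0.78 ± 0.33 (SE). Without CROC+K replicate 1, 6 members had an unadjusted p under 0.05. The share of all genes in that fit is not given, so this count is no result about the members. In Timm9 the groups did not overlap. The groups were also apart, with CROC+K higher, in Timm8b, Timm8a2, Timm10b and Timm23, 4 of 25 beside 9.66% of all genes, and, with CROC+K lower, in Timm9 and Tomm6os, 2 of 25 beside 9.47%. Timm8b had a change of 0.60 ± 0.33 and the receptor gene Tomm20 one of 0.65 ± 0.34. In both genes the higher levels were those of CROC+K replicates 2 and 3, which also had low Rn45s and the highest Kdm4a and 2-cell marker sums of the 7 libraries. The part of these in the difference was not tested. CROC+K replicate 1 alone, set against FOC+K within the libraries with high Rn45s, gave 0.19 for Timm8b, 0.22 for Tomm20 and -0.46 for Timm9. With equal FPKM sums the median of all genes was -0.30 and that of the import genes -0.35.

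The third comparison, CROC+K+M with FOC+K, differs in both vitrification and melatonin and shares libraries with the other two. Of the 25 genes 21 were higher in CROC+K+M, beside 52.9% of all genes, with a median log2 change of 0.76 beside 0.04. None passed in limma (0% of all genes did; smallest adjusted p 0.736). At an unadjusted p under 0.05 there were 7, all higher, beside 4.46% of all genes in that direction, namely Tomm7 (1.91 ± 0.41), Timm10 (1.28 ± 0.34), Timm8a1 (1.10 ± 0.38), Tomm6 (1.97 ± 0.71), Timm44 (1.06 ± 0.42), Tomm5 (0.86 ± 0.34) and Timm10b (0.93 ± 0.38). Without CROC+K+M replicate 1 the changes of these 7 genes were 1.28, 1.23, 1.17, 0.75, 1.16, 1.26 and 0.48, in the same order. With equal FPKM sums they were 1.31, 0.70, 0.53, 1.37, 0.50, 0.26 and 0.36, and of the 7 only Tomm7 and Tomm6 then had an unadjusted p under 0.05. After quantile normalization Tomm5 was at 0.14. Leaving out CROC+K+M replicate 2, limma called Timm13, Tomm6 and Tomm7, 3 of 25 beside 4.45% of all genes. Both CROC+K+M libraries lay above both FOC+K libraries in 18 of 25, beside 21.3% of all genes, and below in 1, Tomm34, beside 19.8%. Without CROC+K+M replicate 1, 22 of 25 were higher with a median of 0.43, beside 51.3% and 0.02 for all genes, and 6 had an unadjusted p under 0.05, all higher, beside 2.62% of all genes on that side and 2.53% on the other. CROC+K+M replicate 2 lay above both FOC+K libraries in 18 of 25, beside 40% of all genes, and below both in 3, beside 37.4%. With equal FPKM sums the median of the import genes was 0.18 and that of all genes -0.44. Libraries of these 2 groups also differ in Rn45s without exception, so that split and the groups cannot be told apart.

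Import needs more than the translocases, and 37 further genes of the pathway, all in the table and 36 tested, were listed by name. None passed in any comparison (in limma the smallest adjusted p was 0.9996 with vitrification alone, 0.408 with melatonin relative to CROC+K and 0.736 relative to FOC+K). With melatonin 29 of 36 had a higher mean than in CROC+K, with a median log2 change of 0.51, beside 54.1% and 0.06 for all genes. Without CROC+K+M replicate 1 there were 24 of 36 with a median of 0.25, beside 52.3% and 0.03. Between CROC+K and FOC+K the count was 21 of 36 and the median 0.06, beside 47.3% and -0.03. Relative to FOC+K, the melatonin libraries had 31 of 36 higher and a median of 0.62, beside 52.9% and 0.04.

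Those with the smallest unadjusted p for melatonin relative to CROC+K were Minos1, Mtch2 and Mtx2. Minos1, a subunit of the MICOS complex that shapes cristae, was at 113, 117 and 99.9 in CROC+K and 289 and 224 in CROC+K+M, a log2 change of 1.21 ± 0.25 and of 1.03 without CROC+K+M replicate 1. Mtch2, an insertase of the outer membrane, was at 26.5, 14.4 and 22.9 against 115 and 45 (1.75 ± 0.45, and 1.09 without that library). Both genes were above CROC+K in both melatonin libraries. Mtx2, a metaxin of the machinery that inserts beta-barrels, was at 104 in CROC+K+M replicate 1 and at 4.80 or less in all others. Minos1 and Mtch2 also had the smallest p against FOC+K, together with Dnajc19, a J protein of the motor, which was at 762 in CROC+K+M replicate 1 and 20.2 to 45.5 elsewhere. Between CROC+K and FOC+K the genes with the smallest p were Romo1 (0.92 ± 0.45), Apoo (0.67 ± 0.36) and Immp1l (0.52 ± 0.33).

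Of 8 core pathway genes, some varied little and others differed in both or in 1 of the melatonin libraries. Hspa9, the mitochondrial Hsp70 of the motor, was at 52.3 to 66.6 in all 7 libraries, with a log2 change of 0.05 ± 0.24 with melatonin relative to CROC+K. Chchd4, the oxidoreductase that folds small TIM proteins, was at 33.3, 10.2 and 8.81 in CROC+K and 46.7 and 35.4 in CROC+K+M (1.42 ± 0.55, and 1.23 without replicate 1), whereas Gfer, its oxidase, overlapped (0.17 ± 0.32). Samm50, the channel for beta-barrels, was at 5.58 to 15.1 in all libraries (-0.12 ± 0.39). The processing peptidase genes differed, with Pmpcb at 19.7, 23.4 and 19.8 against 31.0 and 34.8 (0.63 ± 0.26) and Pmpca at 19.0 in CROC+K+M replicate 1 but 1.76 to 5.06 elsewhere (1.43 ± 0.72, and 0.06 without that library). Hspd1, the matrix chaperonin, was at 95 in that library and 29.4 to 43.7 elsewhere. Romo1, a TIM23 subunit, reached 1739.5 and 1735 FPKM for FOC+K, 1809.9, 4760.3 and 4158 for CROC+K and 2465 and 3711 for CROC+K+M, the same libraries being high as for Timm8b. The list also holds 1810026J23Rik, a TIM22 subunit that RefSeq now calls Timm29, and Agk of the same translocase. 1810026J23Rik was at 2.72, 5.94 and 6.72 in CROC+K and 5.74 and 9.96 in CROC+K+M (0.56 ± 0.43, and 0.91 without replicate 1). Agk went the other way, at 5.39, 1.75 and 3.63 against 5.21 and 1.05 (-0.28 ± 0.56, and -1.08 without replicate 1).

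Beside 2 other sets of nuclear genes for mitochondrial proteins, the median of the import genes moved less when CROC+K+M replicate 1 was left out. With melatonin relative to CROC+K the median log2 change was 1.62 for 77 oxidative phosphorylation subunits, 0.90 for 77 mitochondrial ribosomal proteins and 0.71 for the 25 import genes. Without that library it was 0.63, 0.33 and 0.54. The differences between the sets were not tested.

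**Figure D5:**
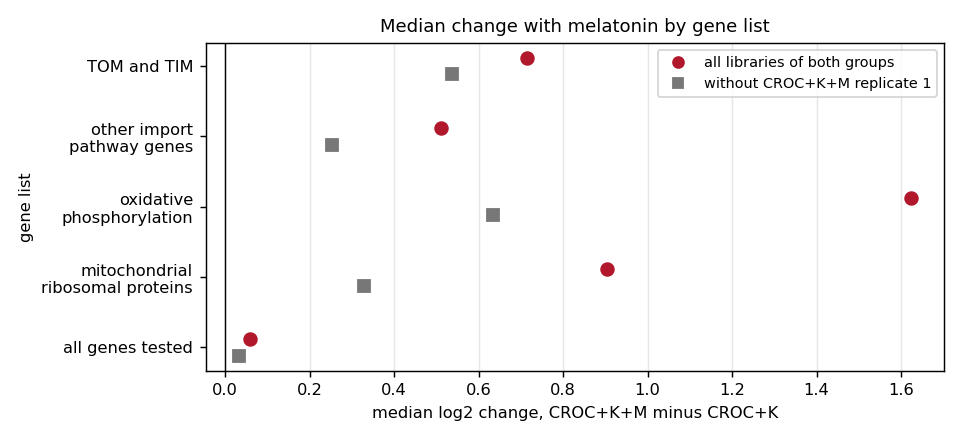
Median log2 change between CROC+K+M and CROC+K (x axis) of 4 gene lists and of all 12271 tested genes (y axis), over all libraries (circles) and without CROC+K+M replicate 1 (squares). The TOM and TIM genes lie at 0.71 and 0.54, and the oxidative phosphorylation subunits at 1.62 and 0.63.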

How the data were processed

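RNA of 7 embryo pools was sequenced after SMARTer cDNA synthesis and ScriptSeq v2 library preparation, per the labels' protocols. The deposited table holds 1 FPKM value per gene symbol and library, computed by the authors. Per the submitters' processing notes, the build was mm9 and the tools were Cufflinks 2.2.1 with Cuffnorm, STAR 2.5.2b and R 3.3.2. Annotation, use of strand and scaling between libraries were not stated, and read depth is unknown, so no counting intervals are printed.

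Groups and replicate numbers come from the sample titles. The labels speak of biological replicates without saying what separates them, so p-values measure the spread between these pools. Values were used as log2(FPKM + 1), which understates changes of low genes. Small RNA genes and ribosomal RNA precursors (1297 rows) were left out. A limma 3.58.1 model (R 4.3.3) with an intensity trend and the group alone was fitted to all 7 libraries, leaving 4 residual degrees of freedom. Its two-sided p-values were adjusted by Benjamini-Hochberg across 12271 genes. The script was tested on simulated data. Coding lengths, near-identical copies and overlaps came from GENCODE and blastn, and summaries from Python 3.11.15.

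Any member could be named. Of the wider pathway, the 3 genes with the smallest p per comparison and 8 core genes were named. The TIM22 genes 1810026J23Rik and Agk were named outside that rule. The members and lists were chosen with earlier results of these data known.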

Additional observations from a re-analysis of the deposited data

How the results depend on the processing

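No import gene was called in any comparison with a pseudocount of 0.1, no filter, equal FPKM sums, quantile normalization, array weights or only the 2 groups compared. Leaving out 1 library at a time gave 0 to 3 called genes when CROC+K+M was compared with either of the other groups. The 3 were called without CROC+K+M replicate 2, where the group is replicate 1 alone and 5.36% and 4.45% of all genes were called. Against CROC+K they were Timm13 (4.08), Tomm6 (2.71) and Tomm7 (2.38). Medians over the 25 genes moved with equal FPKM sums to -0.35 for CROC+K against FOC+K (6 higher) and to 0.18 for CROC+K+M against FOC+K, and the latter was 0.45 after quantile normalization and 0.43 to 0.78 with 1 library left out. With the replicate block the median was -0.04 between CROC+K and FOC+K, 0.79 between CROC+K+M and CROC+K and 0.76 between CROC+K+M and FOC+K. There 0, 4 and 3 genes had an unadjusted p under 0.05, in place of 1, 7 and 7. With array weights these counts were 5, 10 and 8. Leaving out 1 CROC+K library at a time gave 0 to 6 between CROC+K and FOC+K and 5 to 11 between CROC+K+M and CROC+K. The share of all genes is not given for these settings, so the counts are no result about the members. Deviations of same-numbered libraries had correlations of -0.46 to 0.03, so the numbers were not taken to pair samples.

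Signs that turned between CROC+K+M and CROC+K were those of small changes and of Timm13. With equal FPKM sums Timm21, Timm23, Timm8b and Tomm20 were at -0.24, -0.11, -0.10 and -0.035, and after quantile normalization Timm21, Timm23 and Timm8b at -0.16, -0.21 and -0.18. Timmdc1 was at -0.011 with the replicate block and Timm21 at -0.10 with array weights. Within the 4 low-Rn45s libraries Timm21 and Timm8b were at -0.26 and -0.054. With 1 library left out the ranges were -0.26 to 0.34 for Timm21, -0.029 to 0.32 for Timm23, -0.15 to 0.46 for Timm8b, -0.31 to 0.16 for Timm8a2, -0.011 to 0.46 for Timmdc1, -0.073 to 0.51 for Tomm20, -0.38 to 0.89 for Tomm20l and -0.0062 to 4.08 for Timm13. The cause was not tested.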
